A study of Mus musculus with 8 samples.

Results

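Lipid droplet proteins and enzymes of triglyceride synthesis are described here through 10 genes: Plin2, Plin4, Plin5, Cidec, Cidea, Fitm2, Bscl2, Dgat1, Dgat2 and Gpam. They were taken by symbol from a feature list of 56749 features, each of the 10 was found once, and the rule itself uses no measured value, although the genes were chosen with earlier results of these data known. Their levels were measured in nuclei from white fat of the viscera, in 4 groups of 2 mice (8 mice). By the genotype labels every mouse is heterozygous at the p21 locus, with mCherry, a red fluorescent protein, on the modified allele. The control genotype p21+/mCherry was fed a standard diet (mCherry SD) or a high-fat diet (mCherry HFD). Mice labelled p21+/mCherry-Tert (Tert HFD) and p21+/mCherry-TertCi (TertCi HFD) were also fed the high-fat diet. Tert encodes the catalytic subunit of telomerase, and the series' design text places it under the p21 promoter. The series' design text speaks of stromal vascular cells and of p21+/- mice, whereas the sample labels name nuclei of frozen tissue, and the sample labels are followed here. What sets TertCi apart from Tert is not spelled out, and age, sex and strain are not given in the labels. The mCherry mice on the high-fat diet serve as the reference for diet, Tert and TertCi alike, so these 3 contrasts share 2 libraries and their values are not independent of each other.

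A lipid droplet is a core of triglyceride and sterol ester under a single layer of phospholipid, and it is where cells keep fat. In adipocytes triglyceride is made in the endoplasmic reticulum by a chain of acyltransferases. Gpam, on the outer mitochondrial membrane, adds the first acyl chain to glycerol 3-phosphate, and Dgat1 and Dgat2 add the last. Bscl2 (seipin) and Fitm2 act at the endoplasmic reticulum where new droplets bud, perilipins coat the droplet and govern access of lipases, and the CIDE proteins Cidec and Cidea mediate exchange and fusion of droplets. Plin2 coats droplets in most cell types, including fat-laden macrophages, whereas mature adipocytes rely mainly on Plin1. Plin4 coats nascent droplets of adipocytes, and Plin5 links droplets to mitochondria in oxidative tissues. Cidec is a hallmark of the large single droplet of white adipocytes, and Cidea is best known from brown fat.

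Promoters are shown for Plin2 and Plin5, whose adipocyte values moved together below, and for Cidec as a gene whose values did not follow them. RefSeq promoter entries (build GRCm38.p6, which is older than the build mm39 named in the submitters' processing notes) matched 7 of the 10 genes, with 12 entries. Cidea, Dgat1 and Dgat2 are named only. The 250 bases before the start are printed 5′ to 3′ on the gene's strand, and capitals mark matches to AGGTCA, letters bound by many nuclear receptors, or to its reverse complement.
Plin2, chr4:86670060-86670309, minus strand: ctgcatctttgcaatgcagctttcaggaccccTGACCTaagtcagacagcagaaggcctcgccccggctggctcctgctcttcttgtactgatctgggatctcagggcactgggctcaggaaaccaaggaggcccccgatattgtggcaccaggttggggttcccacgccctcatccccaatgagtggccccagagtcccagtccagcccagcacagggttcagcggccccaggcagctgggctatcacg
Plin5, chr17:56117549-56117798, minus strand: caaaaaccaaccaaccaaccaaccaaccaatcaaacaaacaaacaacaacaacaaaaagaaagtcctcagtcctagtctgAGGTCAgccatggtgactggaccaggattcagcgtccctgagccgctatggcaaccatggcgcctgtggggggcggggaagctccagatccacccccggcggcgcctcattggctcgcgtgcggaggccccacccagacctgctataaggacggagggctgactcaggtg
Cidec, chr6:113435761-113436010, minus strand: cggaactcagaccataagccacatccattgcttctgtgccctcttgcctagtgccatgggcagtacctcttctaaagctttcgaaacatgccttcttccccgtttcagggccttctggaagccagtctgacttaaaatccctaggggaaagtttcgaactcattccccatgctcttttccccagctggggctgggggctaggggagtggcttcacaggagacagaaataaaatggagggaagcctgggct
Both strands were searched. The letters AGGTCA were found in 4 of the 12 entries, beside 14.0% of 32851 promoters of the same length. The match begins 218 bases before the start in Plin2, on the opposite strand, and 170 bases before it in Plin5, whose second start has no match. The other entries with a match are starts of Bscl2, at 202 bases, and Gpam, at 196 bases, neither of which was called in adipocyte-like nuclei. TTGCNNAA, letters of a C/EBP site, was found in 1 of the 12 entries, a second start of Cidec that is not shown, beside 9.56% of all promoters. CACGTG and TATAAA were found in 0 of the 12, beside 6.02% and 12.4% of all promoters.

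Of 30209 nuclei, adipocyte-like nuclei were those of clusters that scored best on adipocyte markers such as Plin1, Adipoq and Lep, with at least 3 raised. Macrophage-like nuclei were those of clusters that scored best on markers such as Adgre1, Mrc1 and Csf1r, by the same rule. These markers need not lead a cluster. Macrophage-like clusters 1, 4, 15 and 18 had 0 of theirs among their 10 leading genes, and cluster 15 had 6 of 12 raised. Clusters that also carried 3 or more raised markers of another, unrelated list, 17 of 37, were left out of both classes. Among them was a cluster with cycling and macrophage markers. It held 417 nuclei in mCherry HFD, 5 in mCherry SD, 63 in Tert HFD and 51 in TertCi HFD. Libraries held 23378488 to 139749876 UMIs, molecules counted once each by a molecular identifier. Adipocyte-like nuclei numbered 413 and 646 in mCherry SD (rep144, rep146), 102 and 26 in mCherry HFD (rep128, rep129), 322 and 754 in Tert HFD (rep134, rep136) and 1484 and 365 in TertCi HFD (rep138, rep140). Macrophage-like nuclei numbered 98 and 154, 3381 and 1300, 881 and 903, and 1099 and 284 in the same order. Every adipocyte value for mCherry HFD therefore rests on few nuclei. Different clusters held most adipocyte-like nuclei in different mice: cluster 8 held 91.3% and 95.2% of them in mCherry SD, cluster 0 held 61.5% to 95.1% in the mCherry HFD and TertCi HFD mice and Tert HFD rep134, and cluster 20 held 69.0% in Tert HFD rep136. Tert itself, counted over all barcodes, stood at 3.27 to 3.98 CPM (UMI counts scaled to an equal total) in the 4 mCherry libraries and at 2.01 to 2.76 in the 4 others, so it was not higher where the label names it. Cdkn1a, the gene of p21, stood at 1.57 and 3.19 CPM in mCherry SD, 14.2 and 17.1 in mCherry HFD and 4.28 to 8.48 in the 4 others. The feature named mCherry held 0 to 17 UMIs a library over all barcodes, with 0 in mCherry SD rep144 and mCherry HFD rep129. Whether the inserted copy would be counted under Tert in these 3′ libraries is not given, and every direction below holds for the libraries as labelled.

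Plin2 was the member that changed in both classes and in all 3 contrasts with mCherry HFD. In adipocyte-like nuclei Plin2 stood at 62.1 and 75.0 CPM in mCherry SD, 318 and 284 in mCherry HFD, 116 and 94.7 in the mice labelled Tert HFD, and 59.9 and 91.3 in those labelled TertCi HFD. Both mCherry HFD mice lay above all 6 other mice, the Tert HFD mice lay between, and the mCherry SD and TertCi HFD mice overlapped. Plin2 rose with the high-fat diet by 1.84 on the log2 scale (SE 0.26, adjusted p 0.0020), a fold of 3.59. Throughout, p-values come from the quasi-likelihood test of edgeR, adjusted by Benjamini-Hochberg over all genes tested, and a gene is called at an adjusted p below 0.05. Against mCherry HFD, Plin2 fell by 1.25 in Tert HFD (SE 0.25, adjusted p 0.047 by edgeR) and by 1.59 in TertCi HFD (SE 0.25, adjusted p 0.0095 by edgeR). Leaving out mCherry HFD rep128, which leaves the 26 nuclei of rep129 alone in that group, ended all 3 calls, with log2 values of 1.60, -1.01 and -1.35 (adjusted p 0.094, 0.37 and 0.17 by edgeR). The Tert call also ended without mCherry SD rep146, mCherry HFD rep129 or Tert HFD rep136, at -1.20, -1.31 and -1.20, and the TertCi call without TertCi HFD rep138, at -1.19.

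**Figure D1:**
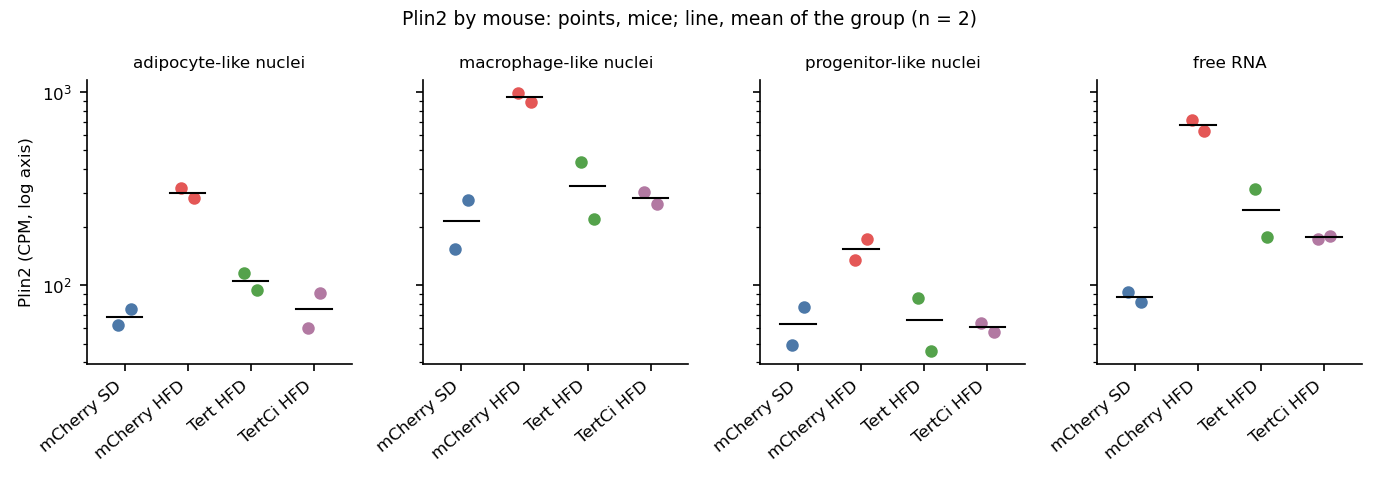
Plin2 in CPM on a log axis for each mouse (points) and the mean of each group (lines, n = 2), in 3 classes of nuclei and in free RNA. Both mCherry HFD mice are the highest points in each panel, at 284 and 318 CPM in adipocyte-like and 885 and 988 CPM in macrophage-like nuclei.

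In macrophage-like nuclei Plin2 stood at 155 and 278 CPM in mCherry SD, 988 and 885 in mCherry HFD, 433 and 220 in the mice labelled Tert HFD, and 304 and 263 in those labelled TertCi HFD. Again the mCherry HFD mice were above all 6 others without overlap. Different clusters held these nuclei: cluster 3 held 34.9% to 80.5% of them in the 6 others and 0.444% and 1.31% in mCherry HFD, where clusters 1, 4 and 13 held most. Cluster 15 held 52.7% of them in Tert HFD rep136 and 0.562% to 23.6% in the other mice. Sums of 8 progenitor markers, at 334 and 684 CPM against 105 to 218 in the others, and of 5 cycling markers, at 92.5 and 95.7 against 27.3 to 78.3, were also highest in mCherry HFD. The sum of mast cell markers was highest there too, at 4.55 to 4.83 CPM against 0 to 2.80. So was that of lymphatic endothelial markers, at 4.72 to 6.76 CPM against 0 to 4.55. Sums of B cell markers, at 126 to 158 against 239 to 874, and dendritic markers, at 182 to 184 against 296 to 427, were lowest. The sum of the 12 macrophage markers themselves was 10640 to 12000 CPM in mCherry SD and 6447 to 6472 in mCherry HFD. It was 6158 to 11000 in Tert HFD and 8396 to 10420 in TertCi HFD. The part of these lists in the Plin2 result was not tested. The rise on the high-fat diet came to 1.93 on the log2 scale (SE 0.28, adjusted p 0.0016 by edgeR), a fold of 3.82, and it was called in each of 8 fits without one of the mice, at 1.62 to 2.39. Plin2 fell by 1.40 in Tert HFD (SE 0.26, adjusted p 0.0063 by edgeR), and that call ended without mCherry HFD rep128, at -1.30 (adjusted p 0.056 by edgeR). It fell by 1.57 in TertCi HFD (SE 0.26, adjusted p 0.0028 by edgeR), which was called in all 8 such fits. The share of macrophage-like nuclei with a Plin2 UMI was 34.7% and 59.7% in mCherry SD, 95.8% and 81.4% in mCherry HFD, 80.5% and 23.8% in Tert HFD, and 57.4% and 53.2% in TertCi HFD. Their median depth was lowest, at 1355 UMIs, for Tert HFD rep136 and highest, at 6271, for mCherry HFD rep128. These mice also had the lowest and highest UMI thresholds for calling a nucleus, at 987 and 4705. After thinning each nucleus to 1000 UMIs the Plin2 shares were 14.0% and 21.9%, 55.8% and 53.1%, 31.3% and 17.4%, and 23.7% and 20.7%. In adipocyte-like nuclei the thinned Plin2 shares were 5.33% and 6.91%, 25.8% and 22.7%, 10.9% and 8.57%, and 5.64% and 8.10%, so the mCherry HFD mice remained above the others at equal depth.

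Free RNA, taken from barcodes of 10 to 100 UMIs, carried Plin2 at 92.6 and 82.1 CPM in mCherry SD, 718 and 625 in mCherry HFD, 315 and 177 in Tert HFD, and 173 and 181 in TertCi HFD, from 20 to 1619 Plin2 UMIs a library. These barcodes held 108012 UMIs in Tert HFD rep134 and 158691 in mCherry HFD rep128, against 213693 to 3028609 in the other mice. In mCherry HFD rep128 they carried Dgat2 at 50.4 CPM and Adipoq at 18.9. Levels set against free RNA there rest on few UMIs for such genes. By group mean Plin2 in free RNA followed the same order as both classes, lowest in mCherry SD and highest in mCherry HFD. Macrophage-like nuclei held Plin2 at 124% to 338% of its free RNA level, above that level in 8 of 8 libraries. Adipocyte-like nuclei held it at 34.6% to 91.4%, where the macrophage genes Adgre1 and Mrc1 stood at 4.63% to 35.6% and 5.51% to 17.3% of theirs. The Plin2 percentage exceeded that of Adgre1 and of Mrc1 in 8 of 8 libraries. The summed level of 12 macrophage markers in adipocyte-like nuclei was 255 to 305 CPM for mCherry SD, 356 to 380 in mCherry HFD, 419 to 476 in Tert HFD and 224 to 469 in TertCi HFD, so it was higher in mCherry HFD than in mCherry SD, as Plin2 was, and highest in Tert HFD rep136. Other lists moved with Plin2 as well. The sum of 8 progenitor markers was 246 to 374 CPM for mCherry HFD and 71.1 to 220 in the 6 other mice, and that of 5 cycling markers 26.1 to 30.2 and 5.73 to 18.6. The sum of 11 adipocyte markers was lowest for mCherry HFD, at 20120 to 21520 CPM against 21620 to 38610 in the others. The part of these in the Plin2 result was not tested. Of the macrophage markers, Fcgr1 was at 0 in 4 of the 8 libraries, Cd68 in 2 and Trem2 in 1. Subtracting a free RNA profile scaled to 5 macrophage markers left Plin2 changes of 1.74, -1.39 and -1.62 in adipocyte-like nuclei (adjusted p 0.010, 0.091 and 0.031 by edgeR). Scaled to all 12 markers they were 1.73, -1.45 and -2.001, and none was called (adjusted p 0.12, 0.37 and 0.15 by edgeR). In macrophage-like nuclei Plin2 was called in all 3 contrasts after either subtraction.

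**Figure D2:**
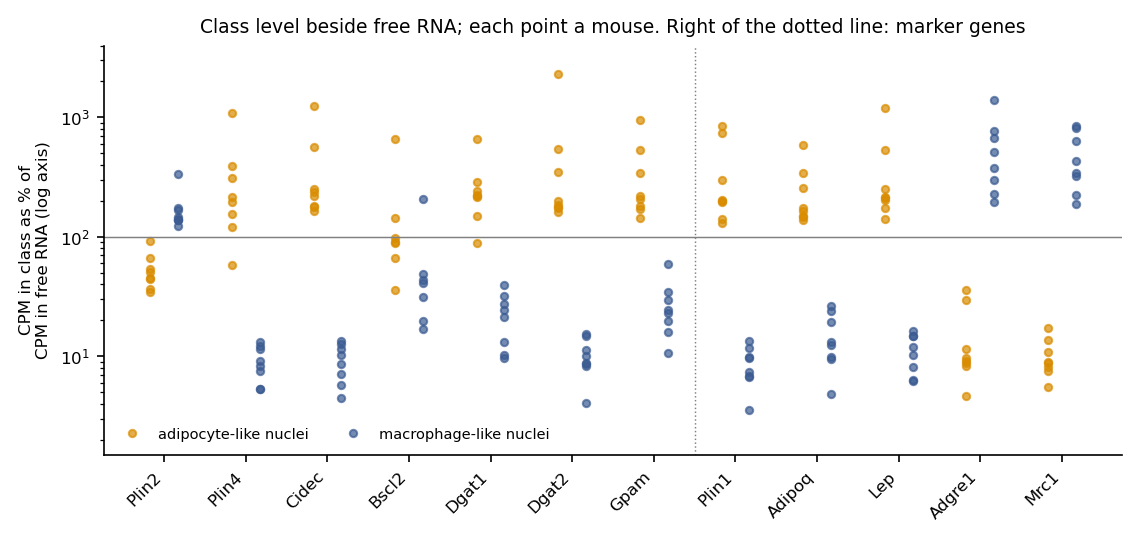
CPM in adipocyte-like (orange) and macrophage-like (blue) nuclei as a percentage of CPM in free RNA of the same library, on a log axis, 1 point a mouse, for 7 members and 5 marker genes. Plin2 in macrophage-like nuclei lies above 100%, at 124% to 338%, while Plin4, Cidec and Dgat2 there lie at 4.09% to 15.5%, within the span of the adipocyte markers Plin1, Adipoq and Lep. The 15.5% is Dgat2 in mCherry HFD rep128, where free RNA held only 158691 UMIs in all.

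Plin2 is given next for subclusters of the macrophages named by marker genes, as a description of their levels. The 4 members among the variable genes of these nuclei were removed before subclustering, so no member shaped the subclusters directly. Lipid-associated subclusters, named from a marker list that includes Trem2 and Gpnmb, were found mostly in mCherry HFD. They held 2550 and 960 nuclei there, 51 in Tert HFD rep134 and 0 to 6 in each other mouse. Subcluster 2 had 9 markers of the list raised, but subcluster 0 only 4, at a score of 1.04 where 1 was required. Subcluster 3, set aside for its leading genes, had 5 raised at a score of 1.08. Subcluster 2 held Plin2 at 1308 and 1258 CPM in mCherry HFD rep128 and rep129. Subcluster 0 held it at 915 and 935 CPM there and at 698 in Tert HFD rep134. In the perivascular-like subclusters, which were present in every mouse, Plin2 stood at 148 and 249 CPM in mCherry SD, 554 and 415 in mCherry HFD, 281.6 and 136.2 in Tert HFD, and 203 and 158 in TertCi HFD. The mCherry HFD mice were again above the 6 others. They also sat in another subcluster, since subcluster 4 held 663 of 666 and 229 of 234 perivascular-like nuclei in mCherry HFD and subcluster 1 held nearly all elsewhere, so subcluster and group cannot be told apart in these contrasts. With diet, perivascular Plin2 rose by 1.09 on the log2 scale (SE 0.31, adjusted p 0.043 by edgeR) and fell by 1.07 in Tert HFD (SE 0.28, adjusted p 0.034 by edgeR) and by 1.30 in TertCi HFD (SE 0.29, adjusted p 0.0096 by edgeR). In those nuclei 13.9%, 11.6% and 18.3% of 8186 genes tested were called. Within lipid-associated nuclei the Tert HFD mouse lay -0.60 on the log2 scale from the mCherry HFD mice, a value given without a test because it rests on 1 Tert HFD mouse. TertCi could not be fitted in them. With subcluster 3 added, whose leading genes go against the name, 6 libraries entered and the values were -0.83 for Tert and -0.82 for TertCi (adjusted p 0.24 and 0.25 by edgeR), where 9.75% and 10.9% of 10270 genes were called.

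The other coat proteins of adipocyte-like nuclei were less uniform. Plin5 stood at 1.66 and 2.15 CPM in mCherry SD, 12.4 and 12.1 in mCherry HFD, 3.54 and 2.19 in Tert HFD, and 1.73 and 2.42 in TertCi HFD. Both mCherry HFD mice were above the 6 others, but their Plin5 values rest on 18 and 2 UMIs. With diet Plin5 rose by 2.35 on the log2 scale (SE 0.65, adjusted p 0.033 by edgeR) and fell by 2.24 in TertCi HFD (SE 0.62, adjusted p 0.0499 by edgeR), while the Tert contrast was -1.80 (SE 0.63, adjusted p 0.16 by edgeR). Each Plin5 call ended in 6 of 8 fits without one of the mice, in every one of those without a mouse of the mCherry or TertCi HFD groups, and DESeq2 called neither (adjusted p 0.17 and 0.24). Plin4 stood at 470 and 798 CPM in mCherry SD, 1442 and 882 in mCherry HFD, 1096 and 528 in Tert HFD, and 478 and 495 in TertCi HFD. It was highest in the mCherry HFD group by mean but Tert HFD rep134 exceeded mCherry HFD rep129, and no Plin4 contrast was called.

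**Figure D3:**
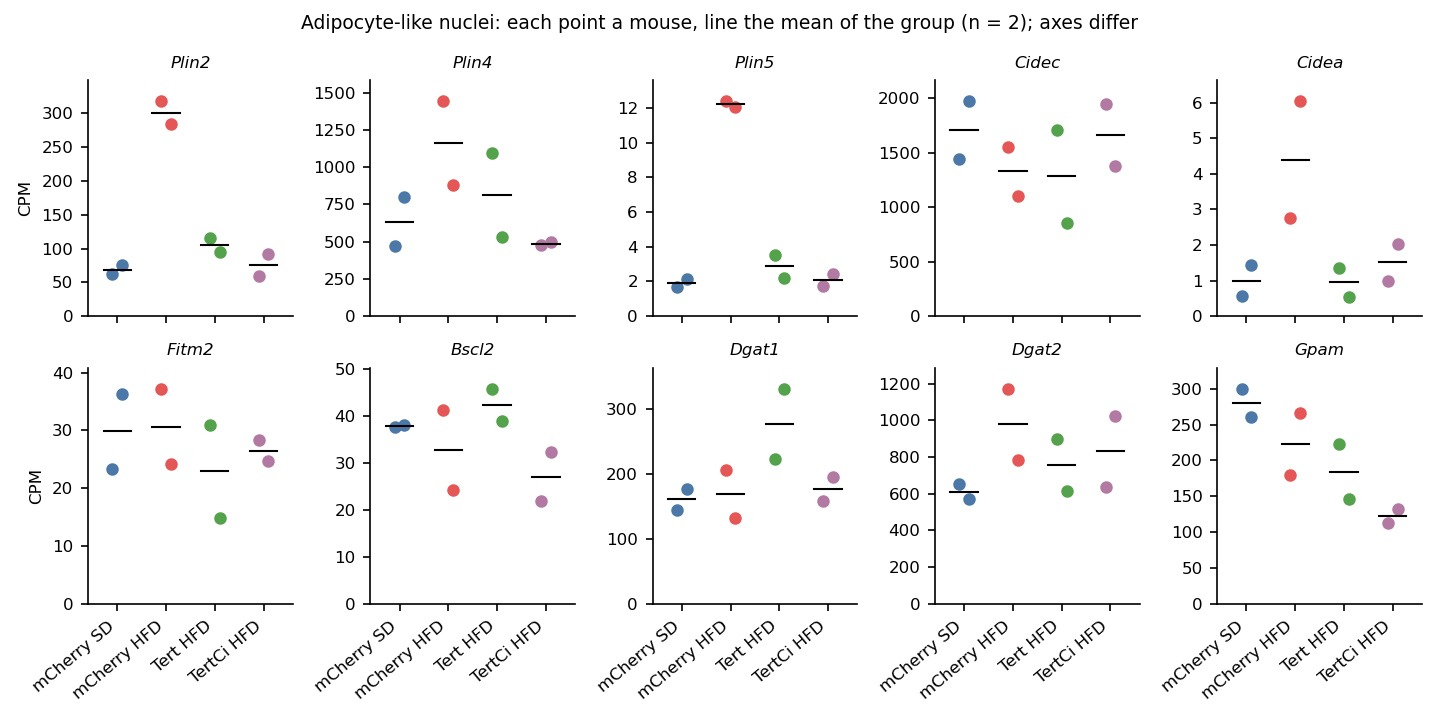
CPM of the 10 members in adipocyte-like nuclei, each point a mouse and each line the mean of a group (n = 2), with axes that start at 0 and differ between panels. Plin2 and Plin5 separate mCherry HFD from the 6 other mice (284 and 318 CPM, 12.1 and 12.4 CPM), while all 4 groups overlap for Cidec and Fitm2.

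Among droplet fusion and budding proteins no adipocyte contrast was called. Cidec stood at 1439 and 1970 CPM in mCherry SD, 1555 and 1105 in mCherry HFD, 1706 and 859 in Tert HFD, and 1948 and 1375 in TertCi HFD, with all 4 groups overlapping. Cidea reached 0.548 to 6.04 CPM from 1 to 11 UMIs a library and did not pass the filter on low counts in adipocyte-like nuclei. Both mCherry HFD mice had more Cidea than the 6 others, from 1 and 4 UMIs. Fitm2 ranged from 14.8 to 37.1 CPM and Bscl2 from 21.8 to 45.7 CPM over the 8 mice. The enzymes of triglyceride synthesis were not called either. Dgat1 stood at 145 and 177, 206 and 133, 223 and 331, and 158 and 195 CPM in the order of groups above, so that both Tert HFD mice were the highest. Dgat2 stood at 651 and 571, 1171 and 785, 901 and 617, and 639 and 1023 CPM, with both mCherry SD mice below both mCherry HFD mice. Gpam stood at 300 and 260, 180 and 266, 222.8 and 146.2, and 113 and 132 CPM. Both TertCi HFD mice were thus the lowest for Gpam and the mCherry SD and mCherry HFD groups overlapped.

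Counted over the 9 members tested in adipocyte-like nuclei, 2 were called with diet (Plin2 and Plin5, both higher), where 15.4% of 12521 genes were called and 9.37% were called higher. For Tert 1 was called (Plin2, lower) beside 0.871% of genes called and 0.583% called lower, and for TertCi 2 (Plin2 and Plin5, both lower) beside 7.21% and 4.07%. The median log2 change over the 9 members was -0.11 with diet, against -0.0039 over all genes. For Tert it was -0.12 against 0.039, and for TertCi -0.079 against 0.025. The 7 members other than Plin2 and Plin5 had log2 values from -0.72 to 0.60 with diet, from -0.31 to 0.93 for Tert and from -0.85 to 0.72 for TertCi. Scaling by library size in place of TMM moved the median of all genes in adipocyte-like nuclei to 0.29 with diet, -0.23 for Tert and -0.39 for TertCi, and the share of calls that were higher from 61.0% to 83.7%, from 33.0% to 13.8% and from 43.5% to 9.24%. Plin2 and Plin5 kept their direction and calls under it.

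Macrophage-like nuclei held other members at low levels. Cidec stood there at 87.9 and 112 CPM in mCherry SD, 10.8 and 22.7 in mCherry HFD, 41.2 and 44.0 in Tert HFD, and 84.9 and 34.3 in TertCi HFD. The mCherry HFD mice lay below the 6 others. By the test, Cidec fell on the high-fat diet by 2.84 (SE 0.49, adjusted p 0.0061 by edgeR) and rose by 1.56 in Tert HFD (SE 0.45, adjusted p 0.048 by edgeR) and by 2.15 in TertCi HFD (SE 0.44, adjusted p 0.011 by edgeR). When a mouse was left out, the Cidec call for Tert was kept in 3 of 8 fits, at 1.04 to 2.11, and ended without either mCherry SD mouse, mCherry HFD rep128 or either Tert HFD mouse. That for TertCi ended without Tert HFD rep136 or TertCi HFD rep138, at 2.26 and 1.28. Cidec in these nuclei stood at 4.46% to 13.5% of its free RNA level, while the adipocyte genes Plin1, Adipoq and Lep stood at 3.57% to 13.3%, 4.801% to 26.1% and 6.20% to 16.4% of theirs. The summed level of 11 adipocyte markers in macrophage-like nuclei, each detected in every library, was 2310 to 2701 CPM for mCherry SD, 911 to 1091 in mCherry HFD, 1411 to 1946 in Tert HFD and 1631 to 2059 in TertCi HFD. Cidec thus stood at a percentage of free RNA like that of adipocyte markers, and its changes are not read as changes of expression in macrophages.

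The same holds for Dgat2, at 4.09% to 15.5% of its free RNA level, and for Plin4, at 5.30% to 13.3%. Dgat2 stood at 15.2 and 45.6 CPM in mCherry SD, 7.79 and 16.4 in mCherry HFD, 22.9 and 35.0 in Tert HFD, and 32.8 and 44.2 in TertCi HFD. Dgat2 gave -1.71 for diet, 1.43 for Tert and 1.87 for TertCi (adjusted p 0.044, 0.046 and 0.011 by edgeR). These Dgat2 calls were kept in 4, 4 and 5 of 8 fits without one of the mice, and each of those for Tert and TertCi ended without mCherry HFD rep128, at 0.92 and 1.36. The Tert calls of both Cidec and Dgat2 also ended with library-size scaling (1.42 and 1.29) and in nuclei of at least 2000 UMIs (1.43 and 1.19). That cut could take nuclei only from mCherry HFD rep129 and Tert HFD rep136, whose calling thresholds were 1712 and 987 UMIs. The diet call of Dgat2 ended with library-size scaling, at -1.56. Plin4 stood at 27.3 and 126, 7.02 and 15.2, 21.1 and 45.4, and 26.7 and 34.3 CPM, and its diet contrast was -3.17 (adjusted p 0.035 by edgeR). Without mCherry SD rep146 the diet values of Plin4, Cidec and Dgat2 were -1.61, -2.69 and -0.63, and none was called. Subtracting free RNA scaled to all 11 adipocyte markers left Plin2 as the only member called in each of the 3 contrasts. It took out 14.0% to 53.5% of the free RNA level, in each library more than Cidec, Dgat2 and Plin4 held. Their counts were thereby set to 0, so the loss of their calls was fixed beforehand and nothing is concluded from it. Dgat1 (12.4 to 37.1 CPM), Gpam (11.1 to 29.0), Bscl2 (9.67 to 15.3) and Fitm2 (0 to 12.1) were not called in macrophage-like nuclei. Plin5 and Cidea held 0 to 12 UMIs a library there and were not tested.

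Over the 8 members tested in macrophage-like nuclei, 4 were called with diet beside 20.2% of 13318 genes, 3 for Tert beside 18.6% and 3 for TertCi beside 25.2%. Among the called members, Cidec and Dgat2, and Plin4 with diet, had the sign opposite to that of Plin2. The median log2 change over the 8 members was -0.99 with diet, 0.79 for Tert and 0.25 for TertCi, against 0.10, -0.047 and -0.074 over all genes. Library-size scaling moved the share of calls that were higher from 56.0% to 66.8% with diet, from 37.9% to 25.6% for Tert and from 40.6% to 28.3% for TertCi, with medians over all genes of 0.24, -0.17 and -0.22.

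**Figure D4:**
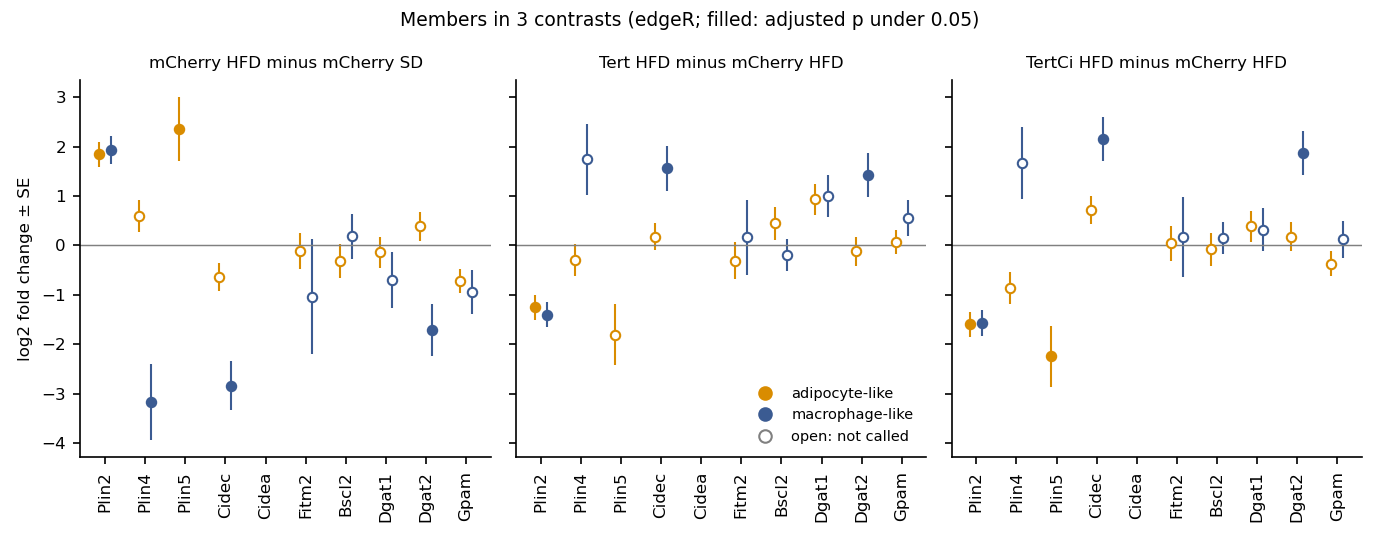
log2 fold change ± SE from edgeR for each member in adipocyte-like (orange) and macrophage-like (blue) nuclei, in 3 panels for diet, Tert and TertCi, filled where the adjusted p is below 0.05. Plin2 lies at 1.84 and 1.93 with diet and between -1.25 and -1.59 in the other panels, while Cidec and Dgat2 are filled in macrophage-like nuclei only, where they stand at 4.09% to 15.5% of their free RNA level, like adipocyte markers.

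Whether a member's change differed between the classes was tested directly, with each mouse as a block. None of the 9 members tested was called by edgeR, with diet beside 4.62% of 14480 genes, for Tert beside 1.25% and for TertCi beside 3.07%. At an unadjusted p below 0.05 by edgeR there were 2 members with diet (Cidec and Plin4), beside 2484 of 14480 genes. For Tert and TertCi there were 0, beside 1674 and 2186 genes. The macrophage-like values of Cidec and Plin4 are not read as macrophage expression. The Plin2 change in macrophage-like minus adipocyte-like nuclei was 0.27 for diet, -0.33 for Tert and -0.11 for TertCi (SE 0.34, 0.33 and 0.33, adjusted p 0.75, 0.77 and 0.93 by edgeR). Leaving out a mouse gave 0 to 3 members called in each of these differences. Tert HFD was also set against TertCi HFD. No member was called in either class, at 0% of genes called, and none had an unadjusted p below 0.05 by edgeR or a call by DESeq2. That unadjusted p was reached by 593 of 12521 genes in adipocyte-like and 511 of 13318 in macrophage-like nuclei. The log2 values of the members ranged from -0.54 to 0.56 in adipocyte-like and from -0.59 to 0.69 in macrophage-like nuclei.

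Plin2 was also measured in progenitor-like nuclei, at 49.3 and 77.4 CPM in mCherry SD, 135 and 173 in mCherry HFD, 86.1 and 45.8 in Tert HFD, and 64.1 and 57.1 in TertCi HFD. The mCherry HFD mice were the highest. Progenitor Plin2 gave 1.03 for diet, -1.01 for Tert and -1.13 for TertCi (SE 0.26, 0.23 and 0.23, adjusted p 0.024, 0.018 and 0.0060 by edgeR), where 11.2%, 10.3% and 18.8% of 11998 genes were called. Progenitor Plin2 stood at 18.8% and 27.7% of its free RNA level in mCherry HFD, and at 53.2% and 94.3% in mCherry SD. Its percentage was above Mrc1 in 8 of 8 libraries and above Adgre1 in 7 of 8, the exception being Tert HFD rep136. It was above Adipoq in 7 of 8, the exception being mCherry HFD rep128, at 18.8% against 19.6%. With diet 4 of 7 members tested were called, with Cidec at -3.30, Plin4 at -3.24 and Dgat2 at -2.25. These 3 stood at 4.63% to 16.1% of free RNA. The part of free RNA in the progenitor values was not tested. Endothelial-like nuclei are not described, because Adgre1 stood there at 121% to 627% of its free RNA level.

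The members were also summed over all called nuclei of each mouse, and more of them were called there than in either class. Fewer cells of a type and less RNA per cell cannot be told apart in it. Cidec stood at 747 and 1148 CPM in mCherry SD, 126 and 94.9 in mCherry HFD, 606 and 418 in Tert HFD, and 1070 and 740 in TertCi HFD. Adipocyte-like nuclei made up 16.2% and 21.5% of nuclei in mCherry SD, 1.37% and 0.903% in mCherry HFD, 9.24% and 23.7% in Tert HFD, and 26.0% and 18.5% in TertCi HFD. The nuclei were called at thresholds that differed between libraries, from 987 to 4705 UMIs, and the part of this in the shares was not tested. Clusters of mixed markers, left out of these shares, held 70.7% and 61.7% of nuclei in mCherry SD and 21.6% to 41.4% in the 6 others, with Cidec at 149 to 1172 CPM, and how many of them are adipocytes was not tested. Cidec gave -3.54 for diet, 2.55 for Tert and 3.498 for TertCi (SE 0.24, 0.23 and 0.24, adjusted p 7.0e-05, 7.6e-04 and 1.0e-04 by edgeR), whereas no Cidec contrast was called in adipocyte-like nuclei alone. In this sum 8 of the 10 members were called in each contrast, beside 40.7% of 21101 genes with diet, 21.7% for Tert and 35.5% for TertCi. Library-size scaling moved the median of all genes to 0.51, -0.39 and -0.58 in the same order. The share of calls that were higher moved from 54.6% to 79.7%, from 50.5% to 27.1% and from 45.5% to 18.8%. The sum also holds epithelial-like clusters 31 and 33, which came 100% from mCherry HFD rep128. Plin4, Cidec, Fitm2, Bscl2, Dgat1, Dgat2 and Gpam were lower with diet and higher for Tert and TertCi, Plin2 had the opposite signs, and Cidea and Plin5 were not called. Plin2 over all nuclei stood at 71.3 and 88.0, 619 and 539, 202 and 103, and 106 and 108 CPM. Tert against TertCi gave 0 calls by edgeR in this sum and 1 call by DESeq2. At an unadjusted p below 0.05 by edgeR there were 3 members, beside 1904 of 21101 genes.

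**Figure D5:**
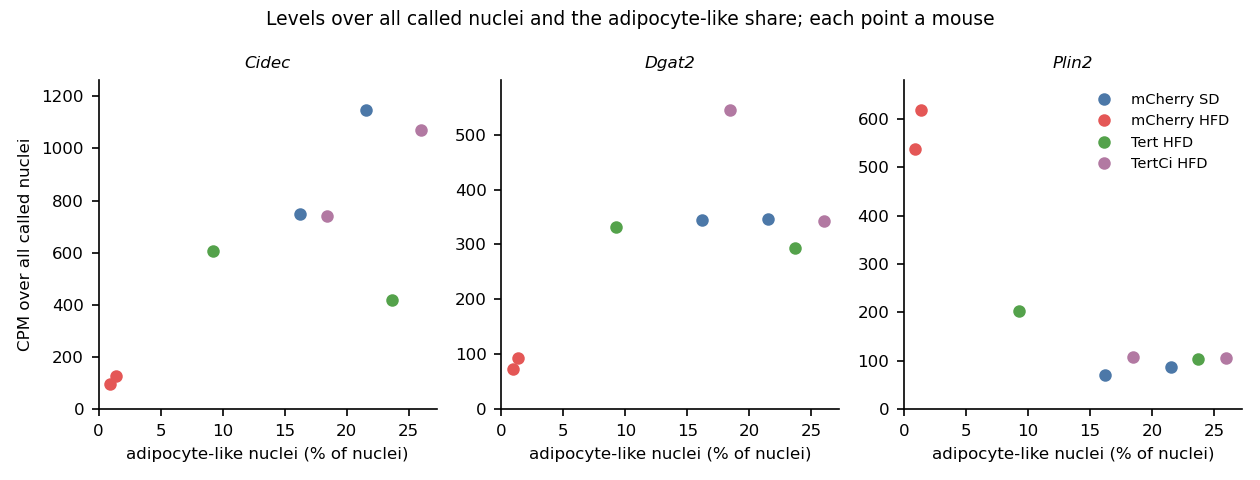
CPM over all called nuclei of each mouse (points, coloured by group) against the share of adipocyte-like nuclei in that mouse, for Cidec, Dgat2 and Plin2, all axes from 0. The mCherry HFD mice, at 0.903% and 1.37% adipocyte-like nuclei, have the lowest Cidec (94.9 and 126 CPM) and Dgat2 and the highest Plin2 (539 and 619 CPM).

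Other genes of droplet biology were counted from 3 lists. Of 20 listed genes of droplet surface and formation 18 were found in the files, and 15 were tested in adipocyte-like nuclei. With diet 2 of these rose and 1 fell, with a median of -0.32. Hilpda, an inhibitor of the triglyceride lipase Pnpla2, rose by 3.24 on the log2 scale (SE 0.54, adjusted p 0.0046 by edgeR), while G0s2, another inhibitor of that lipase, rose by 2.11 (SE 0.25, adjusted p 0.00081 by edgeR). In TertCi HFD both fell, Hilpda by 2.92 and G0s2 by 1.70 (adjusted p 0.010 and 0.0057 by edgeR), and for Tert 0 of the 15 were called. All of these calls ended without mCherry HFD rep128, and the Hilpda call for TertCi also without TertCi HFD rep138. In adipocyte-like nuclei Hilpda stood at 22.8% to 263.5% and G0s2 at 53.5% to 377% of their free RNA levels. Of 19 genes of glycerolipid synthesis 0 rose and 2 fell with diet, among them Mogat1, a monoacylglycerol acyltransferase, by 1.88 (adjusted p 0.039 by edgeR), and 0 were called for Tert or TertCi. Mogat1 ran from -2.33 to -0.75 when a mouse was left out and lost its call without either mCherry SD mouse or mCherry HFD rep128, and DESeq2 called neither of the genes that fell. Over all genes in these nuclei 15.4%, 0.871% and 7.21% were called in the 3 contrasts. Soat1, which makes sterol esters, rose by 2.33 in adipocyte-like nuclei (adjusted p 0.013 by edgeR), but stood there at 9.69% to 21.5% of its free RNA level, near the span of Adgre1 and Mrc1.

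In macrophage-like nuclei 14 genes of droplet surface and formation were tested, of which 2 rose and 1 fell with diet. Hilpda rose by 3.85 and Aup1, a droplet protein of the ubiquitin system, by 2.30 (adjusted p 0.012 and 0.025 by edgeR). Hilpda fell in both, at -1.73 in Tert HFD and -4.30 in TertCi HFD (adjusted p 0.014 and 0.00034 by edgeR), and Aup1 fell by 1.67 in TertCi HFD (adjusted p 0.0091 by edgeR). The Hilpda call for Tert ended without either mCherry HFD mouse or Tert HFD rep134 and was not made by DESeq2, and its TertCi value ran from -9.35 to -3.99 when a mouse was left out. The Aup1 call for TertCi ended without mCherry HFD rep128 or TertCi HFD rep138. The diet calls of Hilpda and Aup1 ended without either mCherry SD mouse or mCherry HFD rep128, and DESeq2 made neither. With a mouse left out, these diet values ran from 3.32 to 9.46 for Hilpda and from 1.73 to 9.86 for Aup1. Hilpda stood at 0% to 94.1% and Aup1 at 0% to 127.5% of their free RNA levels there. Plin1 and Gpat3 had the opposite signs, at -2.56 and -2.45 with diet, 1.502 and 1.85 for Tert and 1.76 and 2.11 for TertCi, and stood at 3.57% to 13.3% and 4.67% to 20.5% of their free RNA levels, so they are not read as macrophage expression. Of 16 genes of glycerolipid synthesis 1 rose and 1 fell with diet, 2 rose for Tert and 4 rose for TertCi, where 20.2%, 18.6% and 25.2% of all genes were called. Gk, a glycerol kinase, was the gene that rose with diet, by 2.13 (adjusted p 0.019 by edgeR). Its call ended without either mCherry SD mouse, and its value ran from 1.75 to 3.34 when a mouse was left out. Lpin1, a phosphatidate phosphatase, rose by 0.64 for Tert (adjusted p 0.039 by edgeR), a call kept in 4 of 8 fits without one of the mice and not made by DESeq2. Gk stood at 18.95% to 127.4% and Lpin1 at 23.8% to 79.1% of their free RNA levels in these nuclei. Both tested genes of sterol ester storage rose with diet. Soat1 rose by 1.38 and Nceh1, which hydrolyses sterol esters, by 2.05 (adjusted p 0.00096 and 9.1e-06 by edgeR), and both were called in each of 8 fits without one of the mice. They fell by 0.95 and 0.87 in TertCi HFD (adjusted p 0.0038 and 0.0021 by edgeR), calls that ended without TertCi HFD rep138. Nceh1 fell by 0.53 in Tert HFD (adjusted p 0.036 by edgeR), a call kept in 3 of 8 fits without one of the mice, at -0.71 to -0.31, and lost without mCherry SD rep146, either mCherry HFD mouse, Tert HFD rep134 or TertCi HFD rep138. Soat1 stood at 124% to 409% and Nceh1 at 197% to 505% of their free RNA levels in these nuclei. Gk, Soat1 and Nceh1 in macrophages were chosen for naming after their values were seen.

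Profiles over the 8 libraries were compared as a description. In macrophage-like nuclei the genes most like Plin2 by Pearson correlation of log2 CPM were Gm11699, Csf2ra, 2610204G07Rik, Gm13963 and ENSMUSG00000120058, with r of 0.990 to 0.993 among 13318 genes. In adipocyte-like nuclei those most like Cidec were Ano10, Osgin2, Echdc3, Tmem87a and Sun1, with r of 0.968 to 0.986 among 12521 genes. Among the members Fitm2 had an r of 0.85 with Cidec there, and Plin2 an r of -0.68. The libraries share diet, genotype group and depth in these values. By the GRCm38 annotation, genes of the opposite strand overlap Plin4 (Hdgfl2), Cidea, Fitm2, Gpam and Bscl2 (Gng3), and a gene of the same strand overlaps Bscl2, so reads of Bscl2 could be shared, while how overlaps and introns were counted is not given in the sources used here.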

How the data were processed

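Nuclei of snap-frozen visceral white adipose tissue from 8 mice were profiled with droplet 3′ libraries. The authors deposited UMI counts, as whole numbers, for each feature in each barcode. The file headers name Cell Ranger 7.1.0, whereas the submitters' processing notes name Cell Ranger 5.0.1, bcl2fastq 2.20.0 and build mm39, and whether introns were counted is not given in the sources used here. Tissue was processed in pairs of samples, per the labels' protocols, but which samples formed a pair is not recorded, so batch and group cannot be told apart.

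Nuclei were called per library by a UMI threshold, which came to 987 to 4705 UMIs, above the floor of 500 set for it. It differed within groups, at 4642 and 987 in Tert HFD (rep134, rep136) and 4705 and 1712 in mCherry HFD (rep128, rep129). Class shares and median depths therefore rest on different cuts. A nucleus also needed 300 or more genes, with a mitochondrial share no higher than 5%. By rank of Scrublet scores 1.59% to 6.35% were removed as doublets, at an expected rate of 0.8% per 1000 nuclei. Libraries shared at most 0.348% of their barcodes. Nuclei were clustered with scanpy 1.11.5 (2000 variable genes, none of them a member; in the macrophage subclusters 4 members were among them and were removed), and clusters were named from at least 3 raised markers. Raw counts were summed per mouse and class and fitted with edgeR 4.0.16 (TMM scaling, filterByExpr, robust quasi-likelihood) in R 4.3.3, with Benjamini-Hochberg adjustment over all genes and a threshold of 0.05. Alternatives used DESeq2 1.42.0, library-size scaling, no filter, nuclei of at least 2000 UMIs, other class naming, free RNA subtraction and leaving out each mouse. The scripts were tested on simulated data. With 2 mice a group, the precision is limited by the mice. Replicate pairs differed beyond sampling noise. The p-values set each group difference against a spread between mice that was estimated over all groups together.

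The members and lists were chosen with earlier results of these data known. All 10 members are named, and from the lists at most 4 called genes per class and contrast with the largest absolute log2 change (Gk, Soat1 and Nceh1 in macrophage-like nuclei were added after their values were seen), together with the 5 genes most like Plin2 in macrophage-like and Cidec in adipocyte-like nuclei.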

Additional observations from a re-analysis of the deposited data

How the results depend on the processing

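No paired analysis was possible because the groups share no replicate numbers. In adipocyte-like nuclei, where 2 members were called with diet, 1 for Tert and 2 for TertCi, DESeq2 called 1 with diet and 1 for TertCi, and no filter on low counts gave 2 for Tert. For TertCi, nuclei of at least 2000 UMIs gave 1, and naming mixed clusters by their best score gave 1. The cut at 2000 UMIs could take nuclei only from mCherry HFD rep129 and Tert HFD rep136. Subtracting free RNA by all markers gave 0, 0 and 0 for diet, Tert and TertCi, and by 5 markers, an alternative chosen after seeing the data, 1, 0 and 1. Leaving out a mouse gave 0 to 4 with diet, 0 to 2 for Tert and 0 to 3 for TertCi. In macrophage-like nuclei, where 4, 3 and 3 members were called, subtraction by all markers gave 1, 1 and 1, and by 5 markers 2 with diet and 1 for Tert. Subtraction by all markers set Cidec, Dgat2 and Plin4 to 0 there, so the loss of their calls was fixed beforehand. Library-size scaling gave 1 for Tert, as did nuclei of at least 2000 UMIs. Leaving out a mouse gave 1 to 4 with diet, 0 to 3 for Tert and 1 to 4 for TertCi in macrophage-like nuclei, and 8, 6 to 8 and 7 to 8 in all called nuclei. In all called nuclei Tert against TertCi gave 0 calls by edgeR, 1 by DESeq2 and 2 with no filter. Differences between the classes, 0 in each contrast, ranged from 0 to 3 when a mouse was left out. Plin2 in lipid-associated macrophages for Tert was -0.60, and -0.83 with the subcluster named without regard to its leading genes. The causes of these moves were not tested. Calls over all genes moved between settings too. With library-size scaling 585 genes were called higher and 1700 lower for Tert in macrophage-like nuclei, against 938 and 1539 with TMM. The share of all genes called is not given beside each count here, so these counts are not read as results about the members. Of the 7 members tested in adipocyte-like nuclei other than Plin2 and Plin5, 3, 5 and 5 changed sign in at least 1 of 17 settings with diet, Tert and TertCi. Of Fitm2, Bscl2, Dgat1 and Gpam in macrophage-like nuclei, 4, 2 and 4 of 4 did. No direction is read from these members. The 26 adipocyte-like nuclei of mCherry HFD rep129 limit the adipocyte contrasts with mCherry HFD.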
